A study of Mus musculus with 21 samples.

Results

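The 9 genes described here encode the signalling part of the T cell receptor and the proteins that act next to it: the CD3 chains Cd3d, Cd3e, Cd3g and Cd247, the kinases Lck and Zap70, the adaptors Lat and Lcp2, and the Ras activator Rasgrp1. They were matched by symbol, as 9 of the 47643 genes in the count table, from a list drawn up by role in the pathway with earlier results of these data known. All 9 had enough counts to be tested in each of the 13 comparisons between groups.

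The antigen-binding chains of the T cell receptor cannot signal on their own and are assembled with the CD3 delta, epsilon and gamma chains and the zeta chain, the product of Cd247, whose cytoplasmic tails carry the tyrosine motifs that are phosphorylated when antigen is bound. Lck, which associates with the CD4 coreceptor, phosphorylates these motifs, Zap70 docks onto them, and Zap70 then phosphorylates Lat and Lcp2 (the protein SLP-76). The resulting scaffold recruits the phospholipase that makes diacylglycerol, which in turn brings Rasgrp1 to the membrane to load Ras with GTP.

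RNA was measured by QuantSeq 3' mRNA sequencing, which counts reads near the 3' end of each transcript, in CD4+ T cells sorted from mice of the strain labelled Tg4 Tiger Nr4a3-Tocky. Their T cells bear a transgene-encoded receptor specific for a peptide of myelin basic protein, together with an Il10-GFP reporter and a Timer fluorescent protein expressed under Nr4a3 control, whose blue form matures into a red form, and all 7 groups share these alleles. The 7 groups of 3 mice were untreated controls and mice given 0.8 µg or 80 µg of the [4Y] MBP peptide subcutaneously, with cells taken at 4 h, 12 h or 24 h. The sort gate moved with time, from blue-only cells at 4 h to blue and red cells at 12 h and red-only cells at 24 h, so time and gate cannot be told apart, and the gate used for the untreated cells and the age of the mice were not given in the sources used here. The replicates of a group were separate mice whose cells were stained with different CD4 fluorochromes and sorted in parallel.

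Total counts ran from 2352800 to 6244279 per library, and the smallest raw count of any of the 9 genes in any library was 65, for Cd3g. The 5 markers of CD4+ T cells (Cd4, Trac, Trbc2, Cd5 and Cd28) were detected in all 21 libraries. Between replicates, the chi-square per degree of freedom over genes lay between 3.28 and 13.4, and the highest values were those of the 0.8 µg 12 h replicate 3 against the other 2 libraries of its group, so results at 12 h are given with and without it where it mattered. The 7 markers of B cells were all in the table, and their summed level moved with time: 381 to 412 CPM (counts scaled to the library total) in the control libraries, 32.3 to 61.9 CPM at 4 h, 34.1 to 88.1 CPM at 12 h, 291 to 335 CPM at 0.8 µg 24 h and 377 to 402 CPM at 80 µg 24 h. In the control and 24 h libraries most of this was Ighm. Without that gene the sums ran from 2.03 to 80.6 CPM, and Cd79a, which defines B cells, had no count in 17 of the 21 libraries. The summed CD4+ T cell markers also moved, from 2208 to 2387 CPM in the control libraries. At 0.8 µg they were 1389 to 1548 CPM at 4 h, 1040 to 1115 at 12 h and 1935 to 2272 at 24 h. At 80 µg they were 1351 to 1493, 1352 to 1496 and 2240 to 2441 CPM. The part of these sums in the results was not tested.

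**Figure D1:**
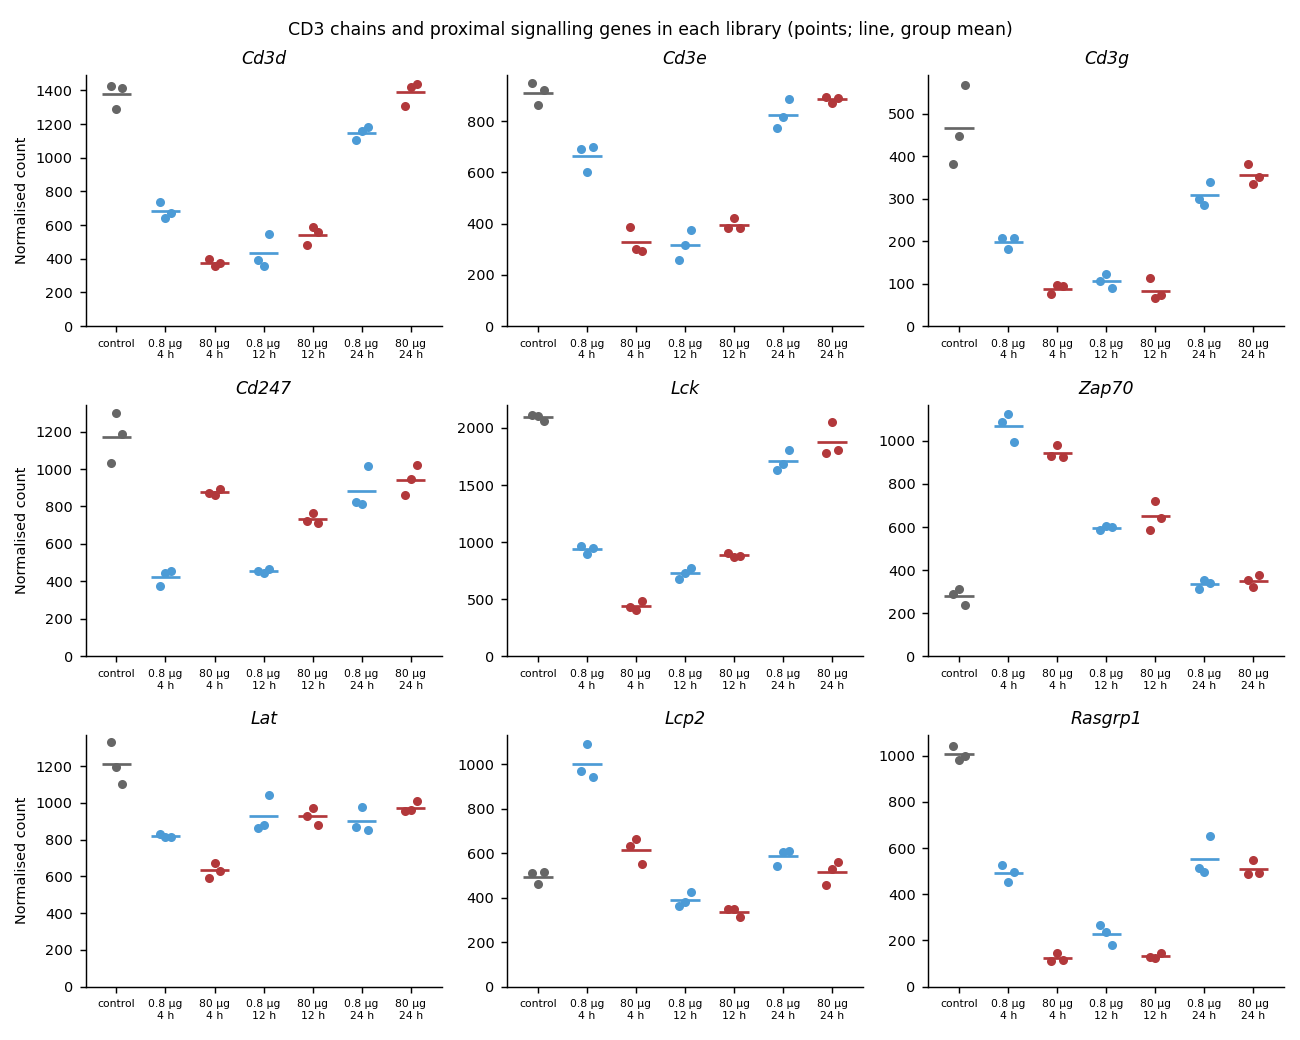
Normalised counts (y axis, from 0) of the 9 genes in each of the 21 libraries, by group (x axis). Points are libraries, lines are means of 3, grey is control, blue 0.8 µg and red 80 µg. Zap70 and Lcp2 stood above the control libraries at 4 h, while the other 7 genes stood below them.

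The first question was whether the 2 peptide doses gave different levels at a given time. At 4 h, 7 of the 9 genes were lower at 80 µg than at 0.8 µg (Cd3d, Cd3e, Cd3g, Lck, Lat, Lcp2 and Rasgrp1), against 6.19% of all 10848 genes tested, and Cd247 alone was higher, against 5.81%. Here and below, a gene is said to have risen, fallen or differed where its adjusted p in the DESeq2 Wald test was under 0.05. Of the 7 lower genes, Cd3e, Cd3g, Lck and Rasgrp1 belong to a module the study chose on these samples, so their direction is not independent evidence. With a log2 fold change above 1 also asked for, these 4 of the 9 were lower (background 2.74%) and 1 was higher (Cd247; background 3.12%). Without the 0.8 µg 4 h replicate 1 this count of 5 became 3, as Cd3e and Cd247 came to -0.99 and 0.96, while all 8 calls by adjusted p alone were kept in number whichever library was left out. Zap70 did not pass. At 12 h, Cd247 and Lck were higher at 80 µg (2 of 9; background 3.67%) and Rasgrp1 was lower (1 of 9; background 2.60%). With edgeR and with limma 2 of these 3 passed, Lck being lost. Without the 0.8 µg 12 h replicate 3, 5 members passed in place of 3. None of the 9 was past a log2 fold change of 1 as well in DESeq2 at 12 h, where 1.83% of all genes were called higher and 0.960% lower, and edgeR and limma also called 0 of the 9. Before adjustment 4 of the 9 were higher and 1 lower at p under 0.05. The share over all genes was not computed for this count, so no result is drawn from it.

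At 24 h none of the 9 genes passed in the DESeq2 test, where 3.73% of the 9663 genes tested were higher and 2.20% lower. In that comparison 1 member, Cd3d, was under 0.05 before adjustment, and neither edgeR nor limma passed any of them. With the fold limit as well, 0.890% of genes were higher and 0.673% lower, and edgeR and limma again called 0 of the 9. The members' median log2 fold change between doses was -0.86 at 4 h, 0.12 at 12 h and 0.10 at 24 h, and that of all genes tested was -0.02, 0.01 and 0.02. Markers of other cells and the mitochondrial share moved with dose. At 4 h the summed myeloid markers were 11.8 to 29.2 CPM at 0.8 µg and 3.46 to 7.18 CPM at 80 µg, with Clec9a, which defines a dendritic cell subset, at 0 in all 21 libraries and Lyz2, a macrophage marker, detected in all. The mitochondrial share of counts was 5.91% to 6.48% at 0.8 µg and 5.18% to 5.82% at 80 µg at 4 h, 6.00% to 6.09% and 5.00% to 5.54% at 12 h, and 9.08% to 9.44% and 8.22% to 9.01% at 24 h. The summed CD8 T cell markers (Cd8a and Cd8b1) overlapped between doses at 4 h, but were 43.6 to 51.3 CPM at 0.8 µg and 13.1 to 22.7 CPM at 80 µg at 12 h, and 34.3 to 40.9 CPM and 20.1 to 28.8 CPM at 24 h, with Cd8a at 0 in 1 of the 21 libraries. Their part in the dose differences was not tested.

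Whether the dose effect changed with time was tested directly with a likelihood ratio test of the dose by time interaction. It passed for 8 of the 9 genes, against 10.4% of the 9958 genes tested, and Zap70 (adjusted p = 0.267) was the exception. The strongest were Lck (adjusted p = 7.71e-28), Rasgrp1 (1.11e-15), Cd3e (1e-12) and Cd3d (3.40e-11) in DESeq2. The weakest were Lat (adjusted p = 0.00738) and Lcp2 (adjusted p = 0.0110), and with edgeR these rose to 0.0999 and 0.0660 and with limma to 0.182 and 0.172 and no longer passed. Lcp2 was also lost with total count size factors (adjusted p = 0.0666), with counts thinned to the smallest library (0.0735), and without 0.8 µg 4 h replicate 2 (0.0707) or 80 µg 4 h replicate 3 (0.0857), so that 7 passed. In bulk RNA of sorted cells, fewer cells expressing a gene and less RNA of it per cell cannot be told apart, here or in any result that follows.

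**Figure D2:**
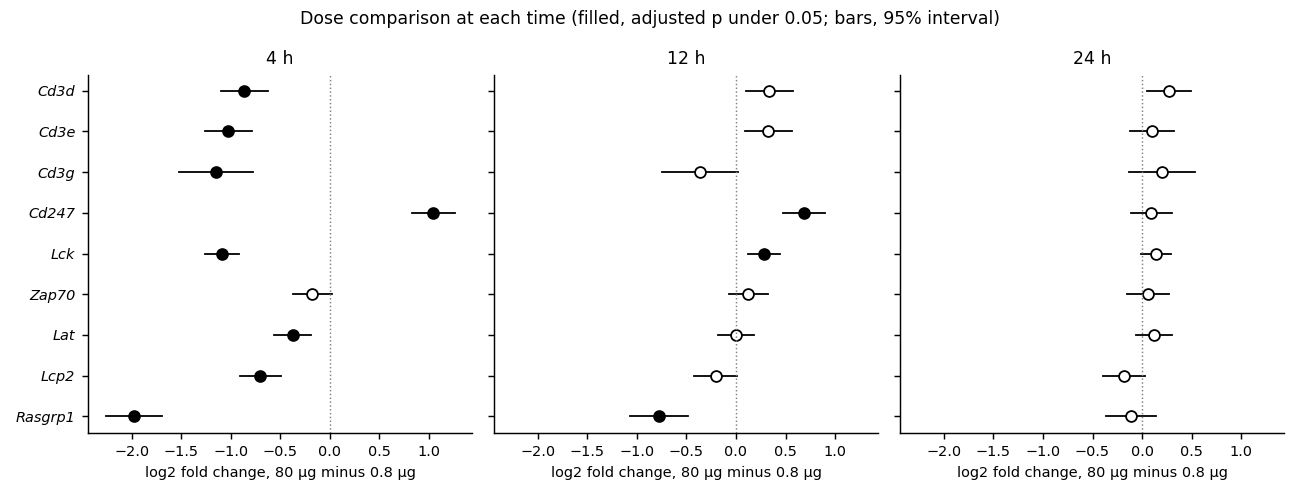
Log2 fold change between doses (x axis, 80 µg minus 0.8 µg) of each gene (y axis) at 4 h, 12 h and 24 h, with 95% intervals as bars and filled points where the adjusted p was under 0.05. Cd247 stood to the right at 4 h and Rasgrp1 furthest to the left, and at 24 h all 9 points were open.

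Against the untreated cells, all 9 genes differed at 4 h and at 12 h with either dose. At 4 h, 7 fell and 2, Zap70 and Lcp2, rose with each dose. The background in the 0.8 µg comparison was 29.2% of the genes tested for a fall and 25.4% for a rise, and in the 80 µg comparison 30.7% and 26.3%. At 12 h, 8 fell and only Zap70 of the 9 rose, also with each dose, where 27.9% of genes fell and 25.2% rose at 0.8 µg, and 27.4% fell and 25.3% rose at 80 µg. With a log2 fold change above 1 also asked for, the 0.8 µg cells had 5 of the 9 lower and 2 higher at 4 h (background 23.4% and 17.3%) and 6 lower and 1 higher at 12 h (20.5% and 17.2%). The 80 µg cells had 5 lower and 1 higher at 4 h (25.1% and 18.4%) and the same numbers at 12 h (20.1% and 17.8%). At 0.8 µg 4 h, 3 of the 7 lay close to that limit, and without the 0.8 µg 4 h replicate 2 Cd3d, Lcp2 and Rasgrp1 came to -0.95, 0.96 and -0.97, which left 4. At 0.8 µg 12 h the 1 higher was Zap70, which came to 0.98 without control replicate 3 and was then not called. These 6 comparisons share their 3 control libraries. The median of all genes tested was itself shifted in them, by -0.13 and -0.15 at 4 h and by -0.11 and -0.11 at 12 h for 0.8 µg and 80 µg, and the members' medians were -1.0 and -1.48 at 4 h and -1.52 and -1.2 at 12 h.

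By 24 h fewer of the 9 genes differed from control. At 0.8 µg, 5 of the 9 were still lower (Cd3g, Cd247, Lck, Lat and Rasgrp1; background 15.2%), and none of the 9 was higher in DESeq2, where Zap70 and Lcp2 were under 0.05 before adjustment and edgeR and limma each passed 5 members in all. The call of Cd3g was lost without control replicate 3 (adjusted p = 0.0505), and Zap70 passed without control replicate 2 (0.0242). At 80 µg, 3 were still lower (Cd247, Lat and Rasgrp1; background 16.9%) and Zap70 was higher (background 22.1%). Of these, Cd247 did not pass with limma (adjusted p = 0.0625), without control replicate 2 (adjusted p = 0.101) or 80 µg 24 h replicate 1 (0.0654), nor Zap70 when only the 6 libraries compared were fitted (0.0749), without control replicate 3 (0.127) or 80 µg 24 h replicate 3 (0.107). Conversely Cd3g passed without control replicate 1 (0.0177) and Lck without 80 µg 24 h replicate 2 (0.0179). Cd3g, at 0.0552 in the main fit, also passed as lower when only the 6 libraries compared were fitted (0.0246). The same held with thinned counts (0.0205) and with at least 10 counts asked for in 3 samples (0.0422). Over all alternatives run, its adjusted p went from 0.00313 to 0.344. None of the 9 was past a log2 fold change of 1 at 24 h in DESeq2, edgeR or limma, where 11.5% of all genes were higher and 5.84% lower at 0.8 µg, and 12.3% and 7.91% at 80 µg. Before adjustment 8 of the 9 were under 0.05 at 0.8 µg and 6 at 80 µg. The share over all genes was not computed for these counts, so no result is drawn from them. By adjusted p, 20.8% of all genes were higher and 15.2% lower at 0.8 µg, and 22.1% and 16.9% at 80 µg. Without 80 µg 24 h replicate 2, Rasgrp1 reached -1.03 and was called. The members' medians were -0.29 and -0.15. With size factors from total counts, which moved the median of all genes by -0.24 in the 80 µg comparison, Cd3e, Cd3g and Lck also passed as lower there and Zap70 no longer did, and in the 0.8 µg comparison Cd3d and Cd3e also passed as lower. The fall at 4 h and 12 h and the return at 24 h ran alongside the B cell marker sums given above. Without Ighm these sums were 37.8 to 80.6 CPM in the control libraries. At 0.8 µg they were 13.2 to 31.9 CPM at 4 h, 6.7 to 42.4 at 12 h and 27 to 36.3 at 24 h. At 80 µg they were 10.8 to 15.3, 2.03 to 19.6 and 7.53 to 16 CPM. Neither 24 h range reached that of the control. The mitochondrial share of counts also moved with time, from 7.27% to 7.52% in the control libraries to 5.18% to 6.48% at 4 h, 5.00% to 6.09% at 12 h and 8.22% to 9.44% at 24 h. The share of counts from the gene Gm42418 was 24.0% to 24.7% in the control libraries and 18.1% to 22.8% at 4 h. It was 17.0% to 25.7% at 12 h and 23.3% to 27.8% at 24 h. The summed CD8 T cell markers were 31.1 to 47.6 CPM in the control libraries. At 80 µg they were 20.3 to 22.8 CPM at 4 h, 13.1 to 22.7 at 12 h and 20.1 to 28.8 at 24 h. At 0.8 µg they were 15.2 to 30.9, 43.6 to 51.3 and 34.3 to 40.9 CPM. Summed myeloid markers were 12.8 to 18.9 CPM in control and 3.46 to 7.18 CPM at 80 µg 4 h, and overlapped control in every other group. The part of these markers and shares was not tested.

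**Figure D3:**
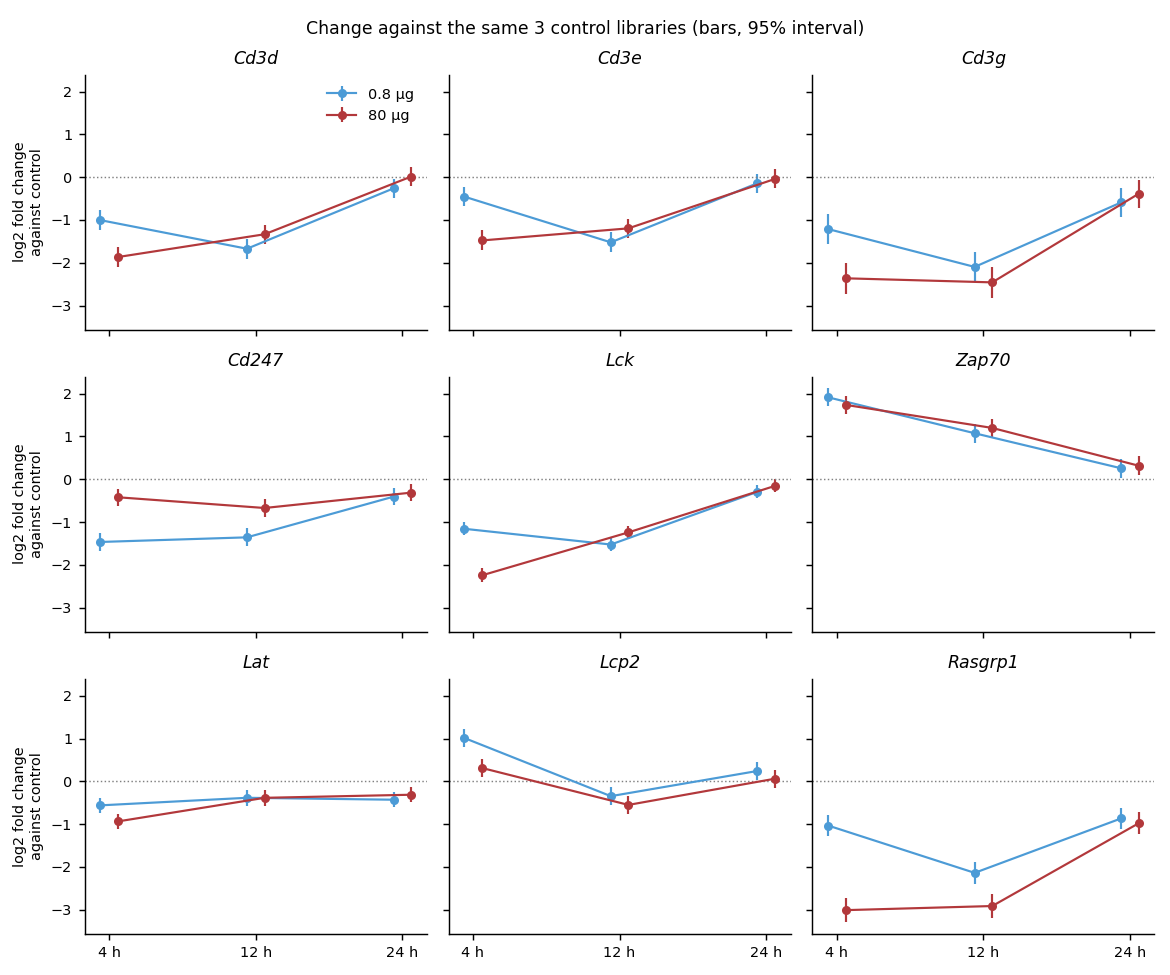
Log2 fold change against the 3 control libraries (y axis) at 4 h, 12 h and 24 h (x axis) for 0.8 µg (blue) and 80 µg (red), with 95% intervals. Rasgrp1 remained below 0 at 24 h with both doses, and Zap70 was above 0 at 4 h and 12 h.

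The CD3 chains come first. Cd3g, Cd3d and Cd3e are neighbours on mouse chromosome 9 (GENCODE vM21, GRCm38). Cd3g, which encodes CD3 gamma, lies at chr9:44969572-44980431 on the minus strand and Cd3d, which encodes CD3 delta, at chr9:44981786-44987339 on the plus strand, so that they are transcribed away from each other from RefSeq starts 1355 bases apart. Cd3e, which encodes CD3 epsilon, lies at chr9:44998740-45009627 on the minus strand, 11401 bases from the end of Cd3d, and Cd247 is on chromosome 1, at chr1:165788681-165877277 on the plus strand.

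Because the 3 neighbours were lower and Cd247 higher at 80 µg than at 0.8 µg at 4 h, the 250 bases before the start of each of these genes are shown (RefSeq, GRCm38.p6, each on the strand of its gene, 5′ to 3′). Capitals mark the Ets core AGGAAG on either strand, so that it also appears as CTTCCT.
Cd3g, chr9:44980432-44980681, minus strand: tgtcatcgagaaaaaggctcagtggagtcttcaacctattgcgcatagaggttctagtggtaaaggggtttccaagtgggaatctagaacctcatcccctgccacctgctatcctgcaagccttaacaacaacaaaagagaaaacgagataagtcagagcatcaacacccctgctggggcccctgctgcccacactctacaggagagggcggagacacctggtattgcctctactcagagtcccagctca
Cd3d, chr9:44981536-44981785, plus strand: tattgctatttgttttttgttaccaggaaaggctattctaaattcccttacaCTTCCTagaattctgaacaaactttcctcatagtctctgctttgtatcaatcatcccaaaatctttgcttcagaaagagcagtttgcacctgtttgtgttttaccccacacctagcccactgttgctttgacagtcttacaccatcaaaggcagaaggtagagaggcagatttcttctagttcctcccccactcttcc
Cd3e, chr9:45009612-45009861, minus strand: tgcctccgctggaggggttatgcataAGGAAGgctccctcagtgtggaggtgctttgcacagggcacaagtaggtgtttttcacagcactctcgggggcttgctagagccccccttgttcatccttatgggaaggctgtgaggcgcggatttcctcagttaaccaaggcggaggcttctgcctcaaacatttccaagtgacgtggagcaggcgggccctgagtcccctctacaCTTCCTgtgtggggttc
Cd247, chr1:165788431-165788680, plus strand: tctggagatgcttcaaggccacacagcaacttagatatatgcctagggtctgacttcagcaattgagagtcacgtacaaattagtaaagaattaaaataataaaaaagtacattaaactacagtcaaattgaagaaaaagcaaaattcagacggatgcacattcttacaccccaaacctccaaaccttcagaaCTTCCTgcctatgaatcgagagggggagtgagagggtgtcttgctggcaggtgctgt
The Ets core was found once in the Cd3d and Cd247 windows, at 2 places in that of Cd3e, and not in that of Cd3g. Of all 32536 distinct promoter windows of this length, 29.6% held it. Over the 9 genes there were 12 such windows, since Lck has 2 and Zap70 has 3, and the Ets core was in 9 of them, from 7 genes. The GC box GGGCGG was found for Cd3g, Lck and Rasgrp1 (33.0% of all windows), TGACGT for Cd3e and Zap70 (6.5%), TGTGGT for Lck and Zap70 (14.0%), and the TATA box TATAAA in none of the 12 (12.3%), all searched on both strands. The E box CANNTG, where N is any base, was in 11 of the 12 windows, from all 9 genes (66.2% of all windows). These matches describe the letters in the windows and were not tied to the expression values.

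Cd3d had 1428, 1288 and 1416 normalised counts in the 3 control libraries. After 0.8 µg it had 739.9, 642 and 671 at 4 h, 393, 358 and 548 at 12 h, and 1103, 1161 and 1180.0 at 24 h. After 80 µg it had 399, 356 and 373 at 4 h, 484, 591 and 557 at 12 h, and 1307, 1421 and 1439.6 at 24 h. The 80 µg libraries were thus lowest at 4 h and the 0.8 µg libraries at 12 h, and the 80 µg 24 h libraries overlapped the control. At 4 h the dose difference was -0.86 ± 0.12 (log2, SE, n = 3 and 3, adjusted p = 6.62e-11 in DESeq2). At 12 h it was 0.34 ± 0.12 (adjusted p = 0.0686), and without the 0.8 µg 12 h replicate 3, whose 548 lay above the other 2, it was 0.54 (adjusted p = 3.43e-05). It also passed without the 80 µg 12 h replicate 1, at 0.41 (adjusted p = 0.0321), and with size factors from TMM (0.0493) or total counts (0.0399).

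Cd3e had 947, 864 and 922 normalised counts in the control libraries. It had 691, 601 and 698 at 4 h, 259.8, 315 and 376 at 12 h, and 775, 816 and 886 at 24 h after 0.8 µg. It had 387, 301 and 293 at 4 h, 385, 423 and 381 at 12 h, and 894, 871 and 892 at 24 h after 80 µg. With 0.8 µg the lowest group was that of 12 h, with 80 µg the level was already that low at 4 h, and both 24 h groups overlapped the control. The dose difference at 4 h was -1.02 ± 0.12 (adjusted p = 1.26e-15). At 12 h it was 0.33 ± 0.12 (adjusted p = 0.0893), which became 0.46 (adjusted p = 0.00705) without the 0.8 µg 12 h replicate 3. Cd3e shares 135 exonic bases with the antisense gene Gm48719, and whether reads were counted by strand was not given in the sources used here.

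Cd3g had 382, 446 and 567 normalised counts in the control libraries. In the 0.8 µg groups there were 207, 182 and 207 at 4 h, 106, 123 and 90.4 at 12 h, and 299, 285 and 339 at 24 h. In the 80 µg groups there were 75.2, 95.9 and 94.3 at 4 h, 112, 65.3 and 72.9 at 12 h, and 380.2, 333 and 351 at 24 h. Every immunised library was below every control library, and the groups at 12 h and the 80 µg 4 h group overlapped one another at the bottom. At 4 h the dose difference was -1.15 ± 0.19 (adjusted p = 5.80e-08) and at 12 h it was -0.36 ± 0.19 (adjusted p = 0.341). Without the 80 µg 12 h replicate 1, the highest of its group, the latter was -0.63 (adjusted p = 0.0401). At its lowest, in the 80 µg 12 h group, Cd3g was at 18% of its control mean, where the lowest group means were 27.3% for Cd3d (80 µg, 4 h) and 34.8% for Cd3e (0.8 µg, 12 h).

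Cd247, which encodes the zeta chain, had 1034, 1297 and 1186 normalised counts in the control libraries. After 0.8 µg it had 373, 445 and 453 at 4 h, 458, 445 and 467 at 12 h, and 823, 815 and 1016 at 24 h. After 80 µg it had 873, 860.0 and 892 at 4 h, 724, 765 and 714 at 12 h, and 861, 944 and 1019 at 24 h. Its lowest groups were those of 0.8 µg at 4 h and 12 h, the reverse of the other chains at 4 h, and none of its 80 µg libraries lay in the 0.8 µg range at these times. The dose difference was 1.04 ± 0.11 at 4 h (adjusted p = 2.79e-19), 0.69 ± 0.11 at 12 h (adjusted p = 3.11e-08) and 0.09 ± 0.10 at 24 h (adjusted p = 0.728). Against control, Cd247 fell by 1.46 ± 0.11 with 0.8 µg at 4 h and by 0.42 ± 0.10 with 80 µg (log2, SE).

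Cd247 overlaps Pou2f1, a transcription factor gene on the opposite strand, over 3007 of its 5329 exonic bases in GENCODE vM21. Pou2f1 had 268 to 292 normalised counts at 0.8 µg 4 h and 266 to 335 at 80 µg 4 h, and these groups overlapped. Its dose difference was 0.07 ± 0.16 at 4 h (adjusted p = 0.887 in DESeq2) and -0.51 ± 0.17 at 12 h (adjusted p = 0.0397), the latter opposite in sign to that of Cd247. How reads in the shared bases were assigned was not given in the sources used here, so a shift between the 2 genes was not tested.

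To compare the chains with each other inside each library, the raw count of Cd3d, Cd3g and Cd247 was divided by that of Cd3e, with 0.5 added to each, on the log2 scale. These ratios are not corrected for transcript length, so only their change between groups is described. The ratio of Cd247 to Cd3e lay between -0.89 and -0.43 in the 0.8 µg 4 h libraries and between 1.17 and 1.60 in the 80 µg 4 h libraries, so the groups did not overlap. The control mean was 0.36, between them. The difference was 2.08 at 4 h, 0.35 at 12 h and -0.01 at 24 h, and the groups overlapped only at 24 h. With all 4 chains in place of Cd3e as the reference, the difference at 4 h was 1.29.

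The ratio of Cd3d to Cd3e differed between doses by 0.17 at 4 h, 0.01 at 12 h and 0.17 at 24 h, and that of Cd3g to Cd3e by -0.14, -0.71 and 0.10. The 4 h differences of these 2 chains were within the spread of the libraries, which overlapped. Their size depends on the reference: with all 4 chains in place of Cd3e, the 4 h difference of Cd3d turned to -0.62 and that of Cd3g was -0.93, and the 12 h difference of Cd3d was -0.078. With 3 libraries against 3 there are 20 relabellings, so the smallest two-sided p of the exact permutation test is 0.1. That value was reached by Cd247 at 4 h and 12 h and by Cd3d at 24 h, 3 of the 9 exact permutation tests, and after Benjamini-Hochberg adjustment over the 9 tests it was 0.3. None of these ratio tests could therefore pass at 0.05.

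**Figure D4:**
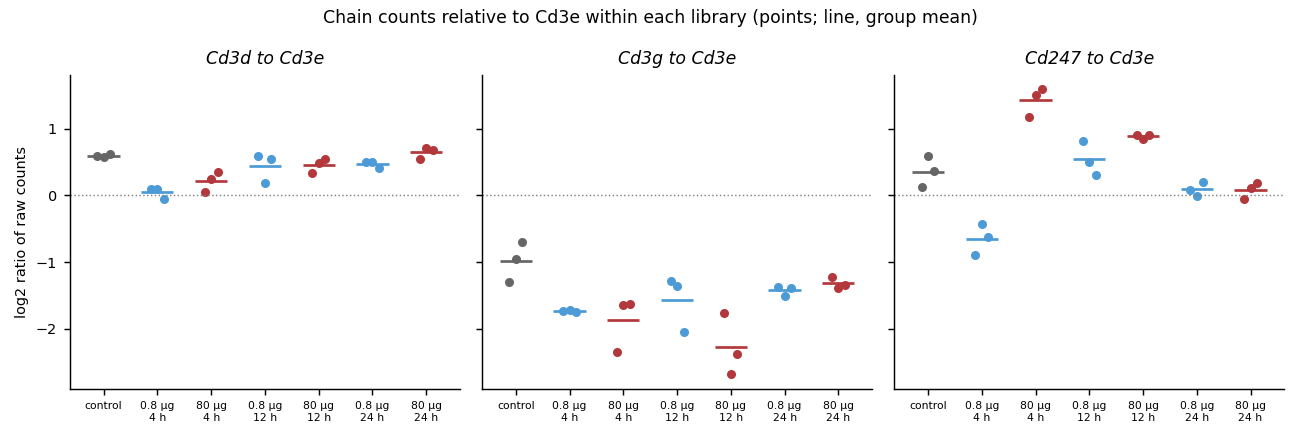
Log2 ratio of raw counts to Cd3e (y axis) for Cd3d, Cd3g and Cd247 in each library, by group (x axis), with lines at group means. The 80 µg 4 h libraries of Cd247 lay between 1.17 and 1.60, above all 3 of the 0.8 µg 4 h libraries, while for Cd3d and Cd3g these groups overlapped.

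Lck, the Src family kinase that phosphorylates the CD3 tails, lies at chr4:129548344-129573641 on the minus strand. It had 2117, 2107 and 2060.0 normalised counts in the control libraries. In the 0.8 µg groups there were 965, 896 and 952 at 4 h, 679, 729 and 774 at 12 h, and 1634, 1685 and 1809.7 at 24 h. In the 80 µg groups there were 434, 403 and 482 at 4 h, 905, 874 and 878 at 12 h, and 1781, 2052 and 1809 at 24 h. The order of the doses was thus reversed between 4 h and 12 h, with no overlap at either time, and all immunised libraries were below all control libraries. At 4 h the dose difference was -1.09 ± 0.09 (adjusted p = 3.34e-33 in DESeq2).

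At 12 h the dose difference of Lck was 0.28 ± 0.08 (adjusted p = 0.0132). This call was lost with edgeR (adjusted p = 0.104), with limma (0.212), with counts thinned to the smallest library (0.0871), with total count size factors (0.0687), when only the 6 libraries compared were fitted (0.292), and without any 1 of 3 libraries (0.8 µg 12 h replicates 1 and 2, adjusted p = 0.139 and 0.0643, and 80 µg 12 h replicate 1, 0.0665). Within the 80 µg series Lck rose by 1.01 ± 0.09 from 4 h to 12 h (adjusted p = 1.43e-29), whereas within the 0.8 µg series it fell by 0.37 ± 0.08 (adjusted p = 6.58e-05), the latter lost with total count size factors (0.0509).

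Zap70, the kinase that binds phosphorylated CD3 tails, lies at chr1:36761798-36782818 on the plus strand and was above control at 4 h and 12 h, when the chains it binds were below it. It had 288, 314 and 239.8 normalised counts in the control libraries. After 0.8 µg it had 1088, 1124 and 997 at 4 h, 584, 605 and 600.0 at 12 h, and 313, 356 and 343 at 24 h. After 80 µg it had 929, 982 and 926 at 4 h, 587, 719 and 642 at 12 h, and 354, 322 and 379 at 24 h. All 12 libraries of 4 h and 12 h were above all control libraries, and the level was lower at each later time with either dose.

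Against control Zap70 rose by 1.91 ± 0.11 (adjusted p = 3.60e-68) with 0.8 µg and 1.74 ± 0.11 (adjusted p = 1.76e-56) with 80 µg at 4 h, and by 1.07 ± 0.11 and 1.2 ± 0.11 at 12 h, the former 0.98 without control replicate 3. The group means at 4 h were 381% and 337% of the control mean. No dose comparison of Zap70 passed: the differences were -0.18 (95% interval -0.37 to 0.02) at 4 h, 0.12 (-0.07 to 0.32) at 12 h and 0.06 (-0.15 to 0.27) at 24 h. At 4 h its 3 libraries of 0.8 µg nevertheless all lay above those of 80 µg.

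Lat, the membrane adaptor that Zap70 phosphorylates, lies at chr7:126363824-126369570 on the minus strand. It had 1333, 1194 and 1104 normalised counts in the control libraries. In the 0.8 µg groups there were 833, 815 and 814 at 4 h, 866, 879 and 1045 at 12 h, and 870.3, 977 and 849.6 at 24 h. In the 80 µg groups there were 591, 675 and 629 at 4 h, 930.0, 971 and 879.7 at 12 h, and 954, 961 and 1008 at 24 h. Every immunised library was below every control library, the 80 µg 4 h group was the lowest, and the 4 groups of 12 h and 24 h overlapped. The dose difference at 4 h was -0.37 ± 0.10 (adjusted p = 0.00148), with limma on the deposited log2 values 0.0561. At 24 h Lat was still lower than control by -0.43 ± 0.09 (adjusted p = 2.39e-05) with 0.8 µg and -0.31 ± 0.09 (adjusted p = 0.00252) with 80 µg.

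Lcp2, which encodes the cytosolic adaptor SLP-76, lies at chr11:34046920-34092295 on the plus strand and shares 282 exonic bases with 4930469K13Rik on the opposite strand. It had 510.2, 461 and 514 normalised counts in the control libraries. After 0.8 µg it had 970.0, 1093 and 942 at 4 h, 362, 382 and 425 at 12 h, and 542, 603 and 611 at 24 h. After 80 µg it had 634, 663 and 549.6 at 4 h, 351, 347 and 313 at 12 h, and 458, 527 and 558 at 24 h. It was thus above control at 4 h and below it at 12 h with either dose.

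At 4 h Lcp2 rose against control by 1.01 ± 0.11 (adjusted p = 2.75e-20) with 0.8 µg and by 0.31 ± 0.11 (adjusted p = 0.00807) with 80 µg, and the dose difference was -0.70 ± 0.10 (adjusted p = 1.17e-09). The rise with 80 µg did not pass with total count size factors (adjusted p = 0.248), without control replicate 2 (0.0588) or without 80 µg 4 h replicate 2 (0.0562). At 12 h Lcp2 fell against control by 0.35 ± 0.11 (adjusted p = 0.00459) with 0.8 µg and by 0.55 ± 0.11 (adjusted p = 3.11e-06) with 80 µg. The former was 0.0919 when only the 6 libraries compared were fitted.

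Rasgrp1, the diacylglycerol-dependent Ras activator, lies at chr2:117279993-117343001 on the minus strand and had the largest dose difference of the 9 genes at 4 h. It had 1044, 981 and 1001 normalised counts in the control libraries. In the 0.8 µg groups there were 526, 452 and 496 at 4 h, 265, 235 and 179.6 at 12 h, and 512, 495 and 651 at 24 h. In the 80 µg groups there were 112, 143 and 116 at 4 h, 129, 124 and 146 at 12 h, and 489, 550.5 and 493 at 24 h. All immunised libraries were below all control libraries, the 2 doses did not overlap at 4 h or 12 h, and they overlapped at 24 h. The dose difference was -1.98 ± 0.15 at 4 h (adjusted p = 7.05e-39) and -0.78 ± 0.15 at 12 h (adjusted p = 1.05e-05).

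Of the 9 genes Rasgrp1 was also furthest from the control mean at 24 h, at 54.8% of it with 0.8 µg and 50.6% with 80 µg. These differences were -0.86 ± 0.13 (adjusted p = 2.09e-10) and -0.98 ± 0.13 (adjusted p = 3.11e-13) on the log2 scale. In the same groups Cd3e was at 90.6% and 97.2% of its control mean and did not pass (adjusted p = 0.349 and 0.813).

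The steps in time separated the doses in another way. From 4 h to 12 h at 0.8 µg, 7 of the 9 genes fell (background 18.2%), Cd247 and Lat being the 2 that did not pass, and none of the 9 rose in DESeq2 (background 20.9%), where none was under 0.05 before adjustment in that direction and edgeR and limma passed 7 in all. With a log2 fold change above 1 as well, Cd3e, Lcp2 and Rasgrp1 were lower (background 7.98%) and none of the 9 higher by any of these tools (12.6%). Cd3e and Rasgrp1 lay near that limit: Cd3e came to -0.95 without 0.8 µg 12 h replicate 1 and Rasgrp1 to -0.98 without 0.8 µg 12 h replicate 3, which left 2 each time, while Cd3g was added without 0.8 µg 12 h replicate 2, and total count size factors left only Lcp2 of the 3. With those size factors Lat passed as higher over this step (0.33, adjusted p = 0.000426). Over the same step at 80 µg, 4 rose (Cd3d, Cd3e, Lck and Lat; background 23.6%) and 3 fell (Cd247, Zap70 and Lcp2; background 19.3%). The calls of Cd3e and Cd247 in this step were weak, with adjusted p = 0.0462 and 0.0412, and were lost with edgeR (0.0809 and 0.0803). Leaving out any 1 of the 6 libraries left 5 or 6 of the 7 calls, the lost ones being Cd3e, Cd247 or both. Past a log2 fold change of 1 there was Lck alone, higher (background 15.7%), and 0 of the 9 were lower in DESeq2, edgeR or limma (9.10%). That call of Lck, near the limit, was lost without 80 µg 4 h replicate 1 (0.99), 80 µg 4 h replicate 2 or 80 µg 12 h replicate 1. From 12 h to 24 h the doses gave the same lists: with each, 7 genes rose (background 24.9% for 0.8 µg and 24.9% for 80 µg), Zap70 fell (19.1% and 19.8%), and Lat did not pass. The rise of Cd247 with 80 µg was lost with total count size factors (adjusted p = 0.319). Past a log2 fold change of 1, Cd3d, Cd3e, Cd3g, Lck and Rasgrp1 rose with each dose (background 17.1% and 16.7%), and 0 of the 9 fell in DESeq2, edgeR or limma (9.48% and 10.5%). Without 0.8 µg 24 h replicate 1 or 2, 6 were called at 0.8 µg in place of 5, Cd247 being added, so the lists at this limit then differed between the doses.

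How the 9 genes lie within the wider pathway was described with 97 further genes of T cell receptor signalling in 8 lists, taken from general knowledge of the pathway with earlier results of these data known. At 4 h, 91 of the 97 were tested for dose, and 22 were lower and 11 higher at 80 µg (background 6.19% and 5.81%), with a median log2 fold change of -0.15 beside -0.02 for all genes tested. At 12 h, 12 of the 91 tested were lower and 10 higher (background 2.60% and 3.67%), with a median of -0.03 beside 0.01. At 24 h, 3 of the 88 tested were lower and 9 higher (background 2.20% and 3.73%), with a median of 0.05 beside 0.02. With a log2 fold change above 1 as well, 11 of the 91 were lower at 4 h and 0 higher in DESeq2 (background 2.74% and 3.12%). At that limit 1 was lower and 2 higher at 12 h (0.960% and 1.83%), and 1 lower and 1 higher at 24 h (0.673% and 0.890%). By adjusted p alone, the 8 lists did not all lean the same way at 4 h. Surface receptors had 5 of 11 tested lower and 1 higher (median -0.60), adaptors and nucleation factors 5 of 18 lower and 1 higher (-0.23), phospholipase, diacylglycerol and protein kinase C genes 4 of 9 lower and 0 higher (-0.16), and calcium entry genes 2 of 9 lower and 0 higher (-0.33). Phosphatases and ubiquitin regulators had 5 of 13 higher and 3 lower (0.02), and Src, Syk and Tec kinases with their regulators 2 of 8 higher and 1 lower (0.25). The Ras and ERK list, which holds other Ras exchange factors beside Ras and the kinases after it, had 1 of 19 lower and 1 higher (0.05), both exchange factors (Rasgrp2 and Sos2), and the antigen-binding chains with Cd4 had 1 of 4 lower and 1 higher (-0.03).

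**Figure D5:**
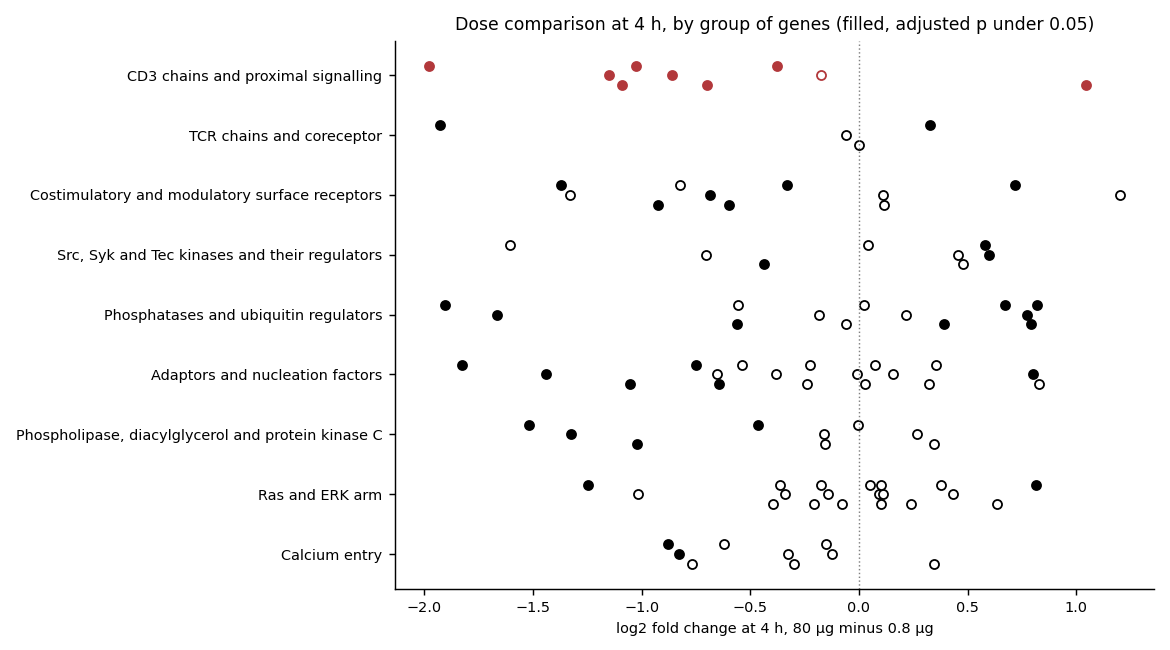
Log2 fold change between doses at 4 h (x axis, 80 µg minus 0.8 µg) of the 9 genes (red, top) and of 91 further pathway genes (black) by list (y axis), with filled points where the adjusted p was under 0.05. Among the black points, 22 filled ones lie below 0 and 11 above.

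The antigen-binding chains were set beside the CD3 chains. Trac, the constant region of the alpha chain, had 2436, 2196 and 2599.5 normalised counts at 0.8 µg 4 h and 2832, 3307 and 2941 at 80 µg 4 h, with no overlap. It was higher at 80 µg by 0.33 ± 0.10 (adjusted p = 0.0165), 0.72 ± 0.11 (adjusted p = 1.47e-09) and 0.59 ± 0.10 (adjusted p = 2.15e-06) at 4 h, 12 h and 24 h. The beta chain constant regions Trbc1 and Trbc2 are near-identical copies between which reads may be split. Neither passed at 4 h, with dose differences of -0.06 ± 0.08 (adjusted p = 0.783) and -0.00 ± 0.08 (adjusted p = 0.998). At 12 h Trbc1 did not pass (0.01 ± 0.08, adjusted p = 0.982) and Trbc2 was higher at 80 µg by 0.33 ± 0.08 (adjusted p = 0.00111). At 24 h neither passed, with dose differences of 0.02 ± 0.08 (adjusted p = 0.929) and -0.03 ± 0.07 (adjusted p = 0.895). A test of whether the CD3 chains differ from these genes was not run. The receptor of these cells is encoded by a transgene, and any reads from it were not told apart from those of the endogenous genes.

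The genes named by size at 4 h were all lower at 80 µg. Cd4, the coreceptor that carries Lck and a protein used in the sort, had 794, 757 and 984 normalised counts at 0.8 µg and 212, 175 and 273 at 80 µg, a difference of -1.93 ± 0.14 (adjusted p = 8.02e-39). Ptpn6, the phosphatase SHP-1, which restrains Lck and Zap70, differed by -1.91 ± 0.13 (adjusted p = 3.91e-44), and Ubash3a, a negative regulator of receptor signalling, by -1.67 ± 0.31 (adjusted p = 3.06e-06).

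At 12 h the named genes were Cd5, an inhibitory surface receptor (1.65 ± 0.19, adjusted p = 1.39e-15), the adaptor Lax1 (-1.17 ± 0.37, adjusted p = 0.0333) and the calcium channel gene Orai2 (1.14 ± 0.38, adjusted p = 0.0428). Orai2 met the minimum mean of 20 normalised counts through the control and 24 h groups, and its own means at 12 h were only 7.61 at 0.8 µg and 17.5 at 80 µg. At 24 h, when none of the 9 genes passed, Rasa3, which encodes a GTPase-activating protein of the Ras family, was higher at 80 µg (1.23 ± 0.20, adjusted p = 2.16e-07), and Unc119 (-1.0 ± 0.31, adjusted p = 0.0270), whose product activates Lck, was lower. Rasa3 had 269.7, 228 and 383 normalised counts in the 0.8 µg 24 h libraries and 749.5, 666 and 658 in those of 80 µg, near the 711, 678 and 639.5 of the control. Unc119, at -1.002, lay just past the fold limit. Its 24 h means were 97.59 normalised counts at 0.8 µg and 47.59 at 80 µg. Both were above its control mean of 19.75, so the rise was smaller at 80 µg.

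The shapes of the 9 genes over the 7 groups were compared as a description over the 7 group means, by the root mean square difference of their centred values of log2(normalised count + 1). The closest pairs were Cd3d with Lck (0.171) and Cd3d with Cd3e (0.197), followed by Cd3g with Rasgrp1 (0.293), and the most distant was Zap70 with Rasgrp1 (1.61). Of the 8761 genes compared, the nearest to Cd3e were Sc5d (0.155), Zc3h7a (0.167) and Rev3l (0.173), and those nearest to Lck were Cenpj (0.139), Nradd (0.154) and Arl6ip5 (0.161). Zap70 was nearest to Twistnb (0.0912), Myo5a (0.102) and Gpat4 (0.105). The genes nearest to Rasgrp1 were further from it: Pgap1 (0.261), Dock2 (0.273) and Fyco1 (0.273).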

How the data were processed

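Raw read counts per gene were deposited as whole numbers for all 21 samples. The authors' pipeline trimmed reads with Bbduk, aligned them to GRCm38 (mm10) with STAR (version 2.5.2a in the submitters' processing notes) and counted them with HTSeq; the strand setting was not given in the sources used here. The authors also deposited regularised log values, on the log2 scale, which were used for gene symbols and in 1 alternative.

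Counts were fitted with DESeq2 1.42.0 in R 4.3.3, as in the study's own methods, over all 21 samples, with genes of at least 10 counts in all (15300 genes), Wald tests, Benjamini-Hochberg adjustment over all genes tested, and log2 fold changes shrunken towards 0 by a normal prior, given with their SE; 95% intervals are 1.96 SE either side. Normalised counts are counts divided by DESeq2 size factors. The interaction was a likelihood ratio test over the 18 immunised samples. A gene was called with an adjusted p under 0.05 and, where stated, a log2 fold change above 1. Alternatives used edgeR 4.0.16 and limma 3.58.1. The fits were tested on simulated data. Figures were drawn with matplotlib 3.10.9. Replicates were separate mice. No column of the tables was left unused.

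The members and the pathway lists were chosen with earlier results of these data known. Of the members, 4 (Cd3e, Cd3g, Lck and Rasgrp1) belong to a module the study chose on these samples, so their direction is not independent evidence. All 9 members are named; from the pathway lists, up to 3 called genes in each direction per dose comparison are named by shrunken fold change, if the groups did not overlap and the mean over all samples was 20 normalised counts or more, plus Cd4, Trac, Trbc1 and Trbc2. Gene locations are from GENCODE vM21, and all 9 members were matched by symbol to RefSeq promoter windows.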

Additional observations from a re-analysis of the deposited data

Results flagged for a closer look

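For 8 of the 9 genes the dose effect differed between the 3 times by the likelihood ratio test of the interaction in DESeq2. The largest minus the smallest dose effect over 4 h, 12 h and 24 h, on the log2 scale, was 1.86 for Rasgrp1, 1.37 for Lck, 1.36 for Cd3g, 1.35 for Cd3e and 1.2 for Cd3d. It was 0.95 for Cd247, 0.52 for Lcp2 and 0.49 for Lat, and the tests of Lcp2 and Lat did not pass with edgeR or limma. For Cd3d, Cd3e, Cd3g, Lck, Lat, Lcp2 and Rasgrp1 the lowest of the 3 effects was that at 4 h, and for Cd247 the highest was. Because the sort gate changed with time, time and gate cannot be told apart here. With 3 samples a group, no test for a single outlying sample was run on the values of single genes.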

How the results depend on the processing

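No called value of the 9 genes changed sign under any alternative run. Over the 13 comparisons, settings other than leaving out 1 library left 1125 values of single genes on the same side of the threshold, while 23 lost their call, 12 gained one and 10 that had no call changed sign. With 1 library left out these numbers were 665, 20, 7 and 10.

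The fold limit mattered most. With the adjusted p alone, 8 members were called in the dose comparison at 4 h, 3 at 12 h, 5 and 4 against control at 24 h for 0.8 µg and 80 µg, 7 and 7 from 4 h to 12 h, and 8 and 8 from 12 h to 24 h. With size factors from total counts, 1 member was called for 80 µg 24 h against control and 1 for 0.8 µg from 4 h to 12 h. With limma on the deposited log2 values, an alternative chosen after seeing the data, 0 were called for 80 µg from 4 h to 12 h. The cause was not tested.

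Leaving out 1 library gave 3 to 5 members called for dose at 4 h, 4 to 7 for 0.8 µg 4 h against control, 6 to 7 for 0.8 µg 12 h against control, 7 to 8 for the interaction, 0 to 1 for 80 µg 24 h against control, 2 to 4 for 0.8 µg from 4 h to 12 h, 5 to 6 for 0.8 µg from 12 h to 24 h, and 0 to 1 for 80 µg from 4 h to 12 h. With the adjusted p alone it gave 2 to 5 for dose at 12 h. The ratio of Cd3d to Cd3e then ranged from -0.12 to 0.090 at 12 h, that of Cd3g from -0.26 to 0.10 at 4 h, and that of Cd247 from -0.063 to 0.061 at 24 h. With all 4 chains as the reference the dose differences were -0.62 (Cd3d, 4 h), -0.078 (Cd3d, 12 h), -0.93 (Cd3g, 4 h) and 1.29 (Cd247, 4 h).

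Replicate numbers did not pair the samples: the correlations of same-numbered deviations went down to -0.07 and no comparison had all 3 above 0.1. With the replicate number as a block, 6 members in place of 7 passed for 80 µg from 4 h to 12 h, Cd3e having an adjusted p of 0.0561, and 5 were called for dose at 4 h as without it. Over the whole table, fitting only the 6 libraries compared called 145 genes for dose at 12 h in place of 311 and 83 at 24 h in place of 151, and limma called 649 for the interaction in place of 1036. Total count size factors moved the median of all genes by up to -0.24. With 3 libraries per group, a dose difference that did not pass is not shown to be absent, and the widest 95% intervals were those of Cd3g, the gene with the smallest counts of the 9.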
